A study of Xenopus laevis with 13 samples.

Results

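The 200 array probes whose signal fell most between the unfertilized Xenopus laevis egg and the 2-cell stage were followed through the later stages of development. They were chosen from 25827 probes that the scanner software called well above background (below also "detected") in the egg, out of 43803 probes on the array. The choice rested on the measured fall itself. Each signal was expressed on the log2 scale against the 75th percentile of its array, which is the scale of every level given here, and the 200 largest differences between both arrays were taken. The egg and 2-cell values are therefore a description of the choice, while the 11 later arrays were not part of it.

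The study profiled untreated, dejellied eggs from induced ovulation and embryos raised after in vitro fertilization. Each sample was taken from several whole eggs or embryos, and its total RNA was hybridized to 1 one-color Agilent array. Besides the egg and the cleavage samples (2-cell and 16-cell), the series held the blastula at stages 8 and 9, the gastrula at 10.5 and 12, the neurula at 15 and 20, the tailbud at 25, 30 and 35, and the tadpole at 40, or 13 samples in all, none of them replicated. In 8 samples a free-text description gives a stage other than that of the title, and the title was followed. Below, "early arrays" means the 16-cell and both blastula arrays (3 arrays), and "late arrays" those from stage 15 onward (6 arrays).

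The ovulated frog egg holds a store of maternal mRNA made in the ovary, and the genome of the embryo is largely silent until the mid-blastula transition. Before that transition the mRNA store changes by decay and by the lengthening or shortening of poly(A) tails. The labeling kit primes cDNA synthesis from the poly(A) tail, so a probe can follow tail length as well as the amount of mRNA. In whole embryos, fewer cells that contain a transcript and less of it in each cell cannot be told apart. Probes are named here by identifier or by rank of their fall, because the files pair them with accessions of mRNA sequences and not with genes, and 0 of 28256 accessions matched the reference gene table of this species. The roles of the genes, the marker genes of each stage and the probe sequences were for this reason not analysed here. Of 43 glycogene accessions listed by the study, 2 matched an accession on the array and 0 were among the 200 probes. Glycogenes that the array carries under other accessions are missed by this match, so their presence among the 200 is not known.

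The egg, both cleavage samples and stage 8 shared a slide, so the fall was measured within 1 slide. The egg array was the dimmest before scaling, with a 75th percentile of 942 units of intensity, against 2008 at the 2-cell stage and 1122 to 2000 elsewhere. Over the 25827 probes detected in the egg, the median change to the 2-cell stage was -0.43, and 1.20 when arrays were scaled instead to spike-in probes, which bind RNA added during labeling. These scalings differ by a constant for each array, so the same 200 probes were chosen under both. Their median change was -5.69 by the percentile and -4.06 by the spike-ins.

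In the egg most of the 200 probes were dimmer than the median of the probes detected there. Their levels ranged from -4.68 to 4.64 with a median of -1.81, against -0.66 over all probes detected in the egg, and 135 of the 200 lay under the latter median. As intensity, their egg signal ranged from 36.8 to 23560 units with a median of 269. At the 2-cell stage the median was 4.93 units, the lowest 3.32 and the highest 2120. Most of the probes went from a detected signal to none well above background. For the 139 probes that were not well above background at the 2-cell stage, only a lower limit of the fall is known, computed from the lowest detected signal of that array. These limits ranged from 4.70-fold to 1440-fold with a median of 19.9-fold. The other 61 probes were detected on both arrays and fell 23.2-fold to 243-fold, with a median of 40.8-fold. The spot error given by the scanner software was 10.2% of the egg signal at the median and 17.1% at most. A single probe, of rank 134, was marked as a non-uniform spot in the egg. The variation between batches of eggs is not known from 1 array.

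There was no gap around the limit of 200. The probe of rank 200 went from -1.30 to -5.84, a change of -4.54, and the first probe outside went from -4.03 to -8.56, a change of -4.53. Dim and bright probes stood side by side there: the probe of rank 197 began at -4.68 and that of rank 194 at 2.65.

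The fall persisted through cleavage and blastula stages. All 200 probes were at least 2-fold below the egg on each of the early arrays, compared with 28.2% of all probes detected in the egg. The egg value entered both the choice and this count, so nothing is read from the difference. With the normexp background correction and an offset of 50, which draws dim signals together, the count was 86. The median level was -8.67 at the 2-cell stage, -8.09 at the 16-cell stage, and -8.18 and -8.36 in the blastula. The middle 50% of the probes lay between -9.06 and -6.53 at the 2-cell stage and between -8.62 and -6.42 at stage 9. On the early arrays 134 probes were never well above background, 30 were detected on some and 36 on all 3. The 36 detected probes lay 19.0-fold to 254-fold below the egg by their early mean, with a median of 38.1-fold. Their SD over the early arrays was 0.24 at the median and 0.54 at most. Few probes moved at least 2-fold from one stage to the next in this period. Between the cleavage samples 6 of 66 detected probes rose and 3 fell, and between the blastula samples 4 of 59 rose and 4 fell. The same count was not made for other probes.

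From the start of gastrulation the levels climbed. The median was -6.70 and -5.66 in the gastrula, -4.64 and -3.92 in the neurula, -3.73, -3.49 and -3.17 in the tailbud and -2.88 in the tadpole. Over the same period the median of all probes detected in the egg moved from -0.66 to -0.89. In the gastrula the medians of the 200 lay near background, since the lowest detected levels there were -6.44 and -5.72. That lowest level was itself higher at stage 12, and its share in the step between both gastrula medians was not tested. The number of the 200 probes that were well above background went from 47 at stage 9 to 81 and 99 in the gastrula, 113 and 128 in the neurula, 138, 152 and 148 in the tailbud and 159 in the tadpole. As a share of the 200 this was 23.5% at stage 9 and 79.5% in the tadpole. Over all probes on the array the shares were 63.9% and 79.5%. The 200 thus ended at the share of the whole array and not above it. All of them were low at stage 9, so nothing is read from their larger climb. Rises were most frequent in the gastrula and in the step out of it. Of the 84 probes detected at stage 9 or 10.5, 49 rose at least 2-fold in this step and 1 fell, and the steps to stages 12 and 15 raised 70 of 110 and 61 of 119 probes. Later steps raised fewer, with 42 of 129 probes to stage 20 and 25 of 155 to stage 35, before 44 of 161 rose in the step to the tadpole. Such steps were not counted for other probes, so these counts only describe the 200.

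To measure this rise without the egg and 2-cell arrays, each subsequent array was set against the mean of the early arrays. All 200 probes were also low on the early arrays, so that mean is not free of the choice. At the start of gastrulation 49 of the 200 probes (24.5%) were detected and at least 2-fold above that mean, against 9.22% of all 43803 probes. At stage 12 the share was 41.5%, against 19.9% of all probes. In the neurula it was 52.5% and 59.5%, against 26.0% and 27.1%. In the tailbud it was 65.5%, 70.5% and 69.0%, against 28.3%, 29.8% and 29.3%. In the tadpole it was 74.5%, or 149 probes, against 31.7%. The next 200 probes by size of fall rose in similar numbers at first, with 54 at stage 10.5 and 77 at stage 12. They numbered 93 and 111 in the neurula, 116, 116 and 115 in the tailbud and 124 in the tadpole. The rise was thus shared by probes outside the 200, and the difference between both sets was not tested. Falls of at least 2-fold below the same mean were seen in 2 of the 200 probes at stage 10.5 and in 10 to 14 of them afterward, against 5.33% of all probes at stage 10.5 and 15.0% to 26.0% afterward. Many of the 200 were at background on the early arrays, where a rise is the change that can be seen. All 200 had also passed the detection limit in the egg. The 43803 probes include 6432 that were detected neither there nor on any early or late array. Nothing is therefore read from the gaps between the 200 and all probes.

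In a limma fit of the 6 late arrays against the 3 early arrays, 130 of the 200 probes were higher in late stages. A further 11 were lower and 59 did not pass an adjusted p of 0.05. Of the 130, 102 were detected on all late arrays. The probes of ranks 164 and 171 were among the 130 though they were at background on every embryonic array. Of all 43803 probes tested, 30.1% were higher and 26.7% lower. The 200 were all detected in the egg and low on the early arrays, so nothing is read from gaps to the shares of all probes. Among the next 200 probes by size of fall, 110 were higher and 14 lower. Stages stood in for replicates, so these p-values measure the variation among stages and not that among embryos of 1 stage. The median late minus early difference was 3.55 over the 200 probes, 2.55 over the next 200 and 0.18 over all probes. Over the 200 it was 2.25 with quantile normalization, 0.78 with normexp and 3.68 with spike-in scaling. Over all probes these settings gave -0.38, -0.41 and 0.31. On the early arrays 134 of the 200 were at background throughout, so for these the difference is not a measured fold change. Most late and early stages lie on different slides. On the slide that holds both stage 9 and stage 15, the median difference of the 200 probes was 2.52, and 106 of them were detected and at least 2-fold higher at stage 15, against 26.3% of all probes. With normexp, 62 of the 200 were higher in late stages and 4 lower, against 16.0% and 22.2% of all probes. With arrays scaled to their median 24 of the 200 were lower, against 47.1% of all probes.

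The size of the rise could be bounded for 66 probes that were at background on all early arrays and detected on all late arrays. Computed from the lowest detected signals of the early arrays, the limits ranged from 3.29-fold to 6370-fold with a median of 29.1-fold. A limit of at least 10-fold was reached by 44 of the 66 probes, and of at least 100-fold by 11.

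Return was judged against the egg. A probe was counted as returned on an array when it was well above background and no more than 2-fold below its egg value. By this rule 53.5% of the 200 probes returned on at least 1 array from stage 10.5 onward. The other 93 probes (46.5%) stayed at least 2-fold below the egg on all 11 arrays after the 2-cell stage. Of all probes detected in the egg, 12.1% were that low on all 11. However, only 7316 of these 25827 probes had fallen at least 2-fold at the 2-cell stage. The egg value also entered both the choice and this count, so nothing is read from that difference. Among the other 7116 probes that fell at least 2-fold between the egg and the 2-cell stage, 58.9% returned. Of the next 200 probes by size of fall, 118 returned and 78 stayed low on all 11 arrays. These shares were not tested, and a probe that fell further had further to climb. Within the 200 probes, 29 of the 50 largest falls returned, then 27, 26 and 25 of each next 50. With spike-in scaling 61 of the 200 probes stayed low throughout, and 45 with normexp.

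The probes came back over a wide span of stages. First return was in the gastrula for 32 probes, 10 of them at stage 10.5, and in the neurula for 38, of which 23 were at stage 15. It was in the tailbud for 27 probes and in the tadpole for 10. The number of returned probes was 10 and 32 on the gastrula arrays, 55 and 65 on the neurula arrays, 73, 80 and 82 on the tailbud arrays and 92 in the tadpole. The next 200 probes by size of fall numbered 33 and 59 in the gastrula and 77 and 88 in the neurula. They numbered 94, 93 and 95 in the tailbud and the same 92 in the tadpole, so they were ahead until then. By the choice they had fallen less, and their egg levels were lower, with a median of -3.97 against -1.81. The egg value is part of the rule for return, so nothing is read from this lead. Most returns lasted: 72 probes were returned on at least 4 arrays, 9 on all 8 and 13 on a single array. When stage 40 was left out, 97 probes had returned.

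Returning probes often passed the egg. On their highest array 88 were at or above the egg value, 71 at least 2-fold above it and 48 at least 4-fold above it. This sets the highest of 8 arrays against 1 egg array, and the same counts were not made for other probes. The highest level ranged from 0.571 to 815 times the egg level, with a median of 3.57 times. The highest array was the tadpole for 55 of the returning probes, a tailbud array for 21, a neurula array for 22 and a gastrula array for 9. Of the 22 probes highest in the neurula, 13 were still in the returned range in the tadpole, and of the 9 highest in the gastrula, 6 were. In all, 15 probes that had returned were no longer so in the tadpole. In the limma fit 95 returning probes were higher in late stages, 12 did not pass the threshold and 0 were lower. Of all probes, 30.1% were higher and 26.7% lower. Both the return and the fit use the late arrays, so the counts of returning probes in the fit are no independent measure.

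The largest late minus early difference was that of the probe Xl#S21929787_1192, of accession AY689185 and rank 84. Its level was -3.07 in the egg, -9.10 and -8.81 in cleavage, -8.10 and -8.63 in the blastula, -7.08 and 2.21 in the gastrula, 5.61 and 6.05 in the neurula, 6.45, 6.60 and 6.50 in the tailbud and 5.76 in the tadpole. It was at background from the 2-cell stage through stage 10.5, came on within the gastrula, and its early and late arrays did not overlap. The late level was at least 6370-fold above the early level (limma adjusted p = 3.2e-09). At its highest it was 815 times the egg level. In the egg this probe was dim, and its fall to the 2-cell stage is known only as at least 14.3-fold.

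Next was the probe Xl#S28473407_1320, of accession BC108434 and rank 13. Its level was -0.72 in the egg, -9.21 and -8.78 in cleavage, -8.75 and -8.73 in the blastula, -6.53 and -2.07 in the gastrula, 1.66 and 3.11 in the neurula, 3.37, 2.91 and 2.92 in the tailbud and 2.56 in the tadpole. The cleavage and blastula arrays were at background and every late array was above the egg. The late level was at least 601-fold above the early level (limma adjusted p = 1.2e-08), and at its highest it was 17.0 times that of the egg. Another probe of the same accession, of rank 28, had a late level at least 483-fold above its early level by the same kind of limit, and passed the fit (limma adjusted p = 1.7e-08).

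Returning probes followed different courses. An accession with 3 probes, of ranks 7, 16 and 18, came back at stage 12 and was highest at stage 15. These probes stood there at 2.31, 1.42 and 1.18, which was 5.93, 5.01 and 4.70 times their egg levels. In the tadpole they were at -5.70, -6.42 and -6.65, the lowest of their late levels. All 3 probes were within the returned range from stage 12 to stage 30 and remained well above background in the tadpole. A second accession with 3 probes, of ranks 25, 65 and 103, came back at stage 20 and was highest at stage 30, with 1.16, 0.45 and 0.62. It remained near that level in the tadpole, with 0.58, -0.02 and 0.23. The probe of rank 145 came back at the start of gastrulation, with -4.26 in the egg, -5.70 at stage 9, 2.27 and 4.80 in the gastrula and 2.05 in the tadpole, and its highest level was 530 times that of the egg. The probe of rank 152 reached 4.49 at stage 12 and then declined to -2.54 in the tadpole, near its egg value of -2.62.

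The largest falls, of ranks 1 and 2, belonged to probes of 1 accession, BC059335, and neither probe returned. The probe Xl#S17058392_906 had a level of 3.58 in the egg, -9.16 and -8.81 in cleavage, -8.70 and -8.69 in the blastula, -8.70 and -7.98 in the gastrula, -5.72 and -4.62 in the neurula, -4.78, -3.87 and -3.47 in the tailbud and -2.78 in the tadpole. It went from 11277 units of intensity in the egg to 3.50 at the 2-cell stage, a fall of at least 1440-fold, and was not detected again until stage 20. The probe Xl#S17058392_866 had 3.37 in the egg, -8.83 and -8.55 in cleavage, -8.35 and -8.44 in the blastula, -8.49 and -7.69 in the gastrula, -7.78 and -4.91 in the neurula, -5.03, -4.14 and -3.71 in the tailbud and -2.99 in the tadpole. Both probes were among the 4 brightest of the 200 in the egg, and both were higher on the late arrays (limma adjusted p = 9.7e-05 and 0.0054). Even at their highest, in the tadpole, they stood at 0.0122 and 0.0121 times their egg levels.

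The 93 probes that stayed low were of several kinds. Among them, 33 were detected on no late array, and 26 of these 33 on no embryonic array at all, so that the egg was the only sample with a signal above background. Another 35 were detected on some late arrays, and 25 on all 6. For these 25, the highest level from stage 10.5 onward was 0.195 times the egg level at the median. In the limma fit 35 of the 93 were higher in late stages, 11 were lower and 47 did not pass the threshold. Of all probes, 30.1% were higher and 26.7% lower. Staying low is judged on the late arrays too, so nothing is read from the gaps to these shares. The 35 include the probes of ranks 164 and 171, at background on every embryonic array, so not every such call is a measured rise.

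Of the 11 probes that were lower in late stages in the limma fit, 9 were detected on all early arrays, and these showed a further fall by their late mean. Not all of them stayed down. The probe of rank 133 had an early mean of -4.54 and stood at -4.28 in the tadpole. The probe of rank 168 went from -7.32 at stage 15 to -3.67 in the tadpole. Another of the 11, of rank 169, was at background on every early and late array, so its difference is no measured fall. The largest further fall was that of the probe of rank 160 (limma adjusted p = 9.5e-05). It had 1.35 in the egg, -3.43 and -3.36 in cleavage, -3.02 and -3.13 in the blastula and -5.09 and -7.52 in the gastrula. Among the late arrays it was detected on 1. The probe of rank 60 held its low level longer, with 2.71 in the egg, -3.82 at the 2-cell stage and -3.65 at stage 15, and was at background from stage 20 onward, at -8.18 there (limma adjusted p = 0.013). The probes of ranks 91 and 40, of 1 accession, went from 0.81 and 1.38 in the egg to -5.08 and -5.77 at the 2-cell stage and were detected on 0 late arrays (limma adjusted p = 5.4e-06 and 1.0e-04). In contrast, the brightest of the 200 probes in the egg, of rank 188, moved up and down after its fall. It had 4.64 in the egg, 0.08 at the 2-cell stage, 1.28 at stage 12, -0.50 at stage 15 and 1.40 in the tadpole, and its late minus early difference was 0.19 (limma adjusted p = 0.68).

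Detection in late stages was also compared among probes that were at background on all early arrays. Of 14440 such probes, 25.7% were detected on all 6 late arrays. Among the 134 of the 200 probes in this class, 66 (49.3%) were. The share was 46.6% for 367 other probes detected in the egg and 24.9% for the 13939 probes not detected in the egg. Conversely, 20.9% of the 134 were detected on no late array, against 22.9% and 46.1%. At stage 10.5 the detected share was 22.4% for the 134 probes, 33.0% for the other egg-detected probes and 15.2% for those not detected in the egg. In the tadpole these shares were 75.4%, 70.8% and 48.7%. The 134 probes lay above those not detected in the egg on all 8 arrays from stage 10.5 onward. However, the 134 and the 367 probes had passed the detection limit in the egg and the 13939 had not. Probes that give no signal on any array can only be among the 13939, so nothing is read from their lower shares. No test was made of these shares.

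Levels in the egg and in late stages were loosely related. Across the 200 probes, which share arrays and are not independent, the egg values correlated at r = 0.72 with the 16-cell stage, 0.69 with stage 9, 0.44 and 0.30 with the gastrula, 0.28 with stage 15 and 0.33 with the tadpole. Across the other probes detected in the egg, whose range was not cut by the choice, r was 0.87 with the 16-cell stage and 0.59 with the tadpole. Across the next 200 probes by size of fall it was 0.95 and 0.35. The egg value was part of the ranking that set both groups of 200 apart, and most of their values at the 16-cell stage were at background. These correlations therefore only describe the probes. The median egg level was -1.94 for the returning probes and -1.17 for the 93 others. The egg value is part of the rule for return, so these medians only describe the classes.

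Probes of the same accession mostly went the same way. The 200 probes came from 156 accessions, and 42 of these had several probes among the 200, 86 in all. In 41 of the 42 accessions all of these probes were in the same class, returning or not. The exception had a probe of rank 54, which lay between -3.38 and -2.71 on the late arrays and returned, and a probe of rank 80, which lay between -7.06 and -5.88 and did not, from -2.04 and -2.45 in the egg. The falls of probes of 1 accession differed by 0.76 at the median and 4.13 at most. Since they share a transcript, such probes are not separate observations. A further 62 probes carried an accession of the set without being among the 200. Of these, 38 were detected in the egg, and 31 of the 38 fell at least 2-fold. Of all probes detected in the egg, 28.3% did, and the difference was not tested. The median change of the 38 was -2.55, with a range from -4.50 to -0.04. A fall past the limit would have put a probe among the 200, so the choice bounds this range.

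The 200 probes were spread over the array, with 45 at the upper left, 53 at the upper right, 40 at the lower left and 62 at the lower right, where each such field held 24.5% to 25.6% of the probes detected in the egg. Accessions that start with BC made up 36.5% of the 200 probes and 39.8% of the probes detected in the egg.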

How the data were processed

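Per the labels and the study's methods, the authors extracted total RNA from frozen samples and labeled it with Cy3. The deposited scanner output holds a linear intensity per spot, already background-corrected by Agilent Feature Extraction 10.7.3.1, and detection flags. In the deposited series table, 587860 of 587860 intensity values were identical to these. After removal of 1417 control spots from 45220, and with a floor of 1 that touched 0 values, each array was scaled by its 75th percentile on the log2 scale. Saturation was flagged for 0 probes.

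The late arrays were tested against the early arrays by limma 3.58.1 (R 4.3.3; linear model with empirical Bayes, p-values adjusted by Benjamini-Hochberg over all probes), a step also tested on simulated data. Counts were made in Python 3.11.15 with pandas 2.3.3. The members, lists and tests were chosen with earlier results of these data known. Without gene names, the planned gene lists could not be applied and identifiers are printed for 4 probes, the largest falls and the largest late rises. Other probes are cited by rank, some under the planned rule (largest falls, late differences, levels over the egg and egg levels). Others, such as those of ranks 25, 54, 65, 80, 103, 164, 169 and 171, were chosen after their values were seen. Settings varied were the scaling (median, quantile, or 7 of 10 spike-in probes), dim-probe filters, a slide block and the arrays sharing the variance. Normexp was run on median spot and background intensity with an offset of 50. Each array except the egg and 2-cell arrays was also left out in turn.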

Additional observations from a re-analysis of the deposited data

How the results depend on the processing

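Of the 200 probes, 170 were chosen again with quantile normalization and 114 with normexp and an offset of 50. Requiring detection at the 2-cell stage too must keep the 61 probes detected there and drop the rest. That setting is therefore no test of the choice. Ranking by the fall against the lowest detected level of the 2-cell array, chosen after seeing the data, kept 147. The 200 probes low on all early arrays were 86 with normexp, 195 with spike-in scaling and 197 with a 4-fold limit. The 93 low throughout were 45 with normexp, 61 with spike-in scaling and 112 with scaling to the median. Returning probes numbered 88 to 136 under the other settings. The 130 probes higher in late stages were 62 with normexp and 102 to 142 otherwise. The 11 lower in late stages were 21 with quantile normalization, 24 when arrays were centred on their median, 6 with the slide as a block and 4 with normexp. Of all probes, 39.9%, 47.1%, 14.9% and 22.2% were lower under these 4 settings. With scaling to the median 20.6% of all probes were higher, and with normexp 16.0%. The cause of these differences was not tested. Leaving out 1 array at a time gave at least 97 probes returning, 114 to 133 higher and 8 to 12 lower. The 200 probes low on all early arrays stay low when any of these is left out, so that count could not change. The egg and 2-cell arrays were not left out. No paired analysis was possible because no stage was measured more than once, so that no replicate numbers link the groups. Dim signal leaves most falls and rises as lower limits, and every fall rests on 1 egg array.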

Other observations

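Over the 6 late arrays, the median level of the 200 probes, the number of them well above background and the levels of the 4 named probes were examined for a stage far from the others by Dixon's test, and 0 of these 6 groups of values had one.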
